A study of Mus musculus with 4 samples.

Results

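The genes described here are 6 of the 29224 in the deposited tables, taken by symbol as members of the sodium-potassium ATPase system: the beta subunit genes Atp1b1, Atp1b2 and Atp1b3, and the FXYD genes Fxyd1, Fxyd6 and Fxyd7. RNA had been sequenced from astrocytes that were pulled from mouse cerebral cortex at P5 with magnetic beads against GLAST (ACSA-1), a glutamate transporter on the astrocyte surface. There were 2 libraries from Ezh2 f/f mice, which carry floxed Ezh2 alleles and are called the controls below, and 2 from Ezh2 cKO mice, in which the floxed alleles were combined with a Cre driven by Aldh1l1, a gene used as an astrocyte marker. Ezh2 is the methyltransferase that places the repressive mark H3K27me3. The sources used here do not say whether a library came from 1 animal or from several, or whether libraries of a group came from separate litters, so p-values measure the spread between these libraries, which may be technical.

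The sodium-potassium ATPase moves sodium out of the cell and potassium into it at the cost of ATP. Its alpha subunit carries out the transport, its beta subunit is a glycoprotein needed for the folding of alpha and its delivery to the membrane, and small single-span proteins of the FXYD family bind the complex and tune its affinity for ions. In cortex the pump restores the gradients that neuronal firing runs down, and in astrocytes it takes part in the clearance of extracellular potassium and provides the sodium gradient for glutamate uptake.

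The FXYD family is named after 4 residues that precede its membrane span, and the codons for them are shown because they are the feature that makes Fxyd1, Fxyd6 and Fxyd7 members of 1 family. Each line holds 90 coding bases, 5′ to 3′ on the coding strand, spliced from a principal transcript of GENCODE M21 on GRCm38, with the FXYD codons in capitals. Each coding sequence held the pattern once in frame. The Fxyd1 bases fall in 3 exons within chr7:31053419-31054306 on the minus strand, those of Fxyd6 in 2 exons within chr9:45390639-45390832 on the plus strand, and those of Fxyd7 in 3 exons within chr7:31044972-31051359 on the minus strand.
Fxyd1: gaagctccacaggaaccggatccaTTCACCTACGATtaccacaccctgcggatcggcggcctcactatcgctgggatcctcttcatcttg
Fxyd6: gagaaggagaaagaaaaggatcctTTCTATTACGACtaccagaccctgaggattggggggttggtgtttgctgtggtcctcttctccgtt
Fxyd7: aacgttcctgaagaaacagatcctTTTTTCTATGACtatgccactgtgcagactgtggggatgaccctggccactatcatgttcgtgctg
Set side by side without gaps, Fxyd1 and Fxyd6 shared 62.2% of these 90 bases, Fxyd1 and Fxyd7 56.7%, and Fxyd6 and Fxyd7 52.2%. The coding sequences run to 92 codons in Fxyd1, 94 in Fxyd6 and 80 in Fxyd7.

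Total counts lay between 16273308 and 17522152 per library, at which 3 counts correspond to 0.171 to 0.184 CPM, which are counts scaled to a TMM-adjusted library size. Ezh2 had 434 and 327 counts in controls and 211 and 164 in Ezh2 cKO libraries, with a log2 fold change of -1.11 (SE 0.16, adjusted p = 3.26e-05 from edgeR). Fold changes compare Ezh2 cKO with control throughout. Markers of astrocytes and of other cell types were both present. The 12 astrocyte markers summed to 491 to 506 CPM in controls and 2708 to 2968 CPM in Ezh2 cKO, with 10 higher and 0 lower. Aldh1l1 itself, which drives the Cre, did not pass the test, with 1285 and 1250 counts in controls and 1280 and 1155 in Ezh2 cKO. The 12 neuronal markers summed to 6852 to 7195 CPM in controls and 9453 to 9602 CPM in Ezh2 cKO, with 10 higher and 2 lower and a median log2 fold change of 1.42. Tubb3, named after its values were seen, made up much of that sum and was lower, at 3617 CPM in controls and 2208 CPM in Ezh2 cKO in the means.

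The beta and FXYD genes moved unevenly between the genotypes. Atp1b1, Fxyd7, Atp1b2 and Fxyd1 were higher in Ezh2 cKO, by 4.83-, 3.73-, 2.76- and 2.09-fold, Fxyd6 was lower, and Atp1b3 did not pass the test. All 6 members were among the 16793 genes that passed the filter on low counts, so that 4 of 6 were called higher at an adjusted p under 0.05, where 34.7% of all tested genes were, and 1 of 6 was called lower, where 33.6% of all tested genes were. In either direction 5 of 6 members were called, against 68.4% of the tested genes. The median log2 fold change of the members was 1.27, and that of all tested genes was 0.02. For each of the 6 members the CPM of the genotypes did not overlap, as was so for 84.3% of the tested genes, so the absence of overlap does not set the members apart.

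**Figure D1:**
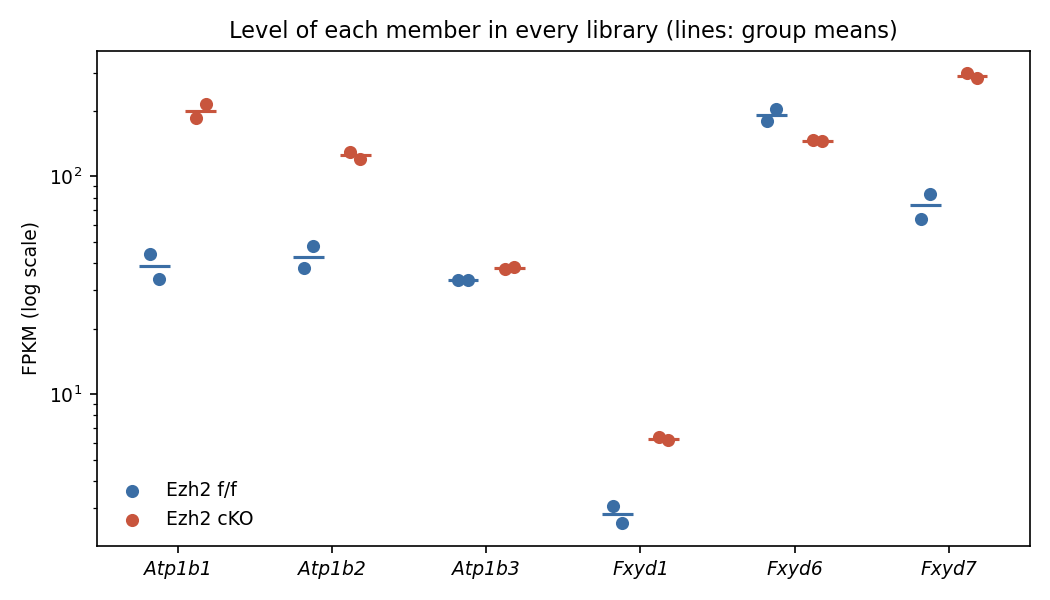
FPKM of the 6 members on a log scale, 1 point per library and a line at each group mean (2 Ezh2 f/f control libraries in blue, 2 Ezh2 cKO libraries in red). Atp1b1 moves from a mean of 39.0 to 199.8 and Fxyd7 from 73.6 to 291, while Atp1b3 stays between 33.4 and 38.4 in the 4 libraries and Fxyd6 goes from 192 to 146.

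Atp1b1 encodes the beta1 subunit, the most widely expressed beta subunit and the common partner of alpha in neurons. Its deposited position, as ENSMUSG00000026576, is chr1:164264678-164285924 on the minus strand. These and the other coordinates are as deposited, on a build that the tables do not name. Atp1b1 had 2391 and 1691 counts in controls and 9881 and 11021 in Ezh2 cKO. Scaled to library size this was 124 ± 22.9 CPM in controls and 598 ± 53.5 CPM in the Ezh2 cKO libraries (SD, n = 2 each). Both Ezh2 cKO libraries lay far above both control libraries, although the control pair itself was spread more widely, relative to its mean, than that of any other beta gene. The log2 fold change was 2.27 (SE 0.12, 95% interval 2.04 to 2.50, adjusted p = 1.57e-09 from edgeR). This and the other intervals rest on a normal approximation, which can be too narrow with 2 libraries per group. A larger log2 fold change was found in 4.74% of all tested genes. By mean FPKM, which scales counts to gene length and library size, Atp1b1 went from rank 1506 in controls to rank 196 in Ezh2 cKO.

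Atp1b2 encodes the beta2 subunit, known in glia as the adhesion molecule AMOG. Its deposited position, as ENSMUSG00000041329, is chr11:69490562-69496768 on the minus strand. Atp1b2 had 2715 and 3171 counts in controls and 9213 and 8217 in Ezh2 cKO. Its level was 180.4 ± 30.3 CPM in controls and 498 ± 34.1 CPM in the Ezh2 cKO libraries (SD, n = 2 each). The groups were well separated, and the log2 fold change was 1.47 (SE 0.11, 95% interval 1.25 to 1.68, adjusted p = 4.46e-08 from edgeR). A total of 2017 of the 16793 tested genes had a log2 fold change larger than that of Atp1b2.

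Atp1b3 encodes the beta3 subunit, which also pairs with alpha. Its deposited position, as ENSMUSG00000032412, is chr9:96214708-96246495 on the minus strand. Its counts were 1397 and 1301 in controls and 1557 and 1532 in Ezh2 cKO. In CPM this was 81.8 and 82.8 in controls and 88.3 and 88.4 in Ezh2 cKO, a narrow range over all 4 libraries. The 2 libraries of each group were close together and the groups did not touch, but the log2 fold change of 0.10 (SE 0.09, adjusted p = 0.334 from edgeR) did not pass the test. Its approximate 95% interval was -0.08 to 0.28, wholly below the intervals of Atp1b1 and Atp1b2. On log2(FPKM + 1) with limma the same gene was called higher, with a log2 fold change of 0.18 (adjusted p = 0.0399).

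Fxyd7 encodes a brain FXYD protein that lowers the affinity of the pump for external potassium. Its deposited position, as ENSMUSG00000036578, is chr7:30741938-30750892 on the minus strand. Fxyd7 had 774 and 942 counts in controls and 3578 and 3273 in Ezh2 cKO. Its level was 52.6 ± 10.3 CPM in controls and 196 ± 9.92 CPM in the Ezh2 cKO libraries (SD, n = 2 each). The lower Ezh2 cKO library was well above the higher control library. The log2 fold change was 1.90 (SE 0.12, 95% interval 1.66 to 2.14, adjusted p = 1.08e-08 from edgeR), and 7.57% of the tested genes had a larger one. By mean FPKM it went from rank 711 to rank 102, the highest of the 6 members in Ezh2 cKO. That place depends on the gene length used. By mean CPM, which uses no length, Fxyd7 in Ezh2 cKO was below Atp1b1 (598), Fxyd6 (584) and Atp1b2 (498).

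Fxyd1 encodes phospholemman, a phosphorylated regulator of the pump best known from heart and muscle. Its deposited position, as ENSMUSG00000036570, is chr7:30751103-30756624 on the minus strand. It was the lowest member by FPKM and had 118 and 91 counts in controls and 241 and 224 in Ezh2 cKO. Its level was 6.35 ± 0.790 CPM in controls and 13.3 ± 0.524 CPM in the Ezh2 cKO libraries (SD, n = 2 each). The groups did not overlap, and the log2 fold change was 1.06 (SE 0.17, 95% interval 0.72 to 1.40, adjusted p = 8.92e-05 from edgeR). The standard error was the widest among the members, and 18.3% of the tested genes had a larger log2 fold change.

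Fxyd6 encodes phosphohippolin, an FXYD protein found in brain. Its deposited position, as ENSMUSG00000066705, is chr9:45281483-45307457 on the plus strand. Fxyd6 was the only one of the 6 members called lower in Ezh2 cKO. It had 12884 and 13638 counts in controls and 10455 and 9949 in Ezh2 cKO. Its level was 811 ± 80.3 CPM in controls and 584 ± 13.3 CPM in the Ezh2 cKO libraries (SD, n = 2 each). The lower control library, at 754 CPM, stood above the higher Ezh2 cKO library, at 593 CPM. The log2 fold change was -0.47 (SE 0.08, 95% interval -0.64 to -0.31, adjusted p = 1.81e-04 from edgeR), so that the level was 1.39 times as high in controls. This was a modest change in these data, and 30.8% of the tested genes had a lower log2 fold change.

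Levels of different genes were compared as FPKM. In controls the order of mean FPKM was Fxyd6 at 192 ± 17.7, Fxyd7 at 73.6 ± 14.0, Atp1b2 at 42.8 ± 6.91, Atp1b1 at 39.0 ± 7.47, Atp1b3 at 33.4 ± 0.0649 and Fxyd1 at 2.82 ± 0.370 (SD, n = 2). Atp1b2 and Atp1b1 overlapped between libraries, and Atp1b1 differed from Atp1b3 by less than its own SD, so neither pair of neighbours differed beyond its spread. In Ezh2 cKO the order was Fxyd7 at 291 ± 10.4, Atp1b1 at 199.8 ± 20.8, Fxyd6 at 146 ± 1.16, Atp1b2 at 125 ± 6.74, Atp1b3 at 38.0 ± 0.596 and Fxyd1 at 6.25 ± 0.154 (SD, n = 2). No neighbours in this order overlapped. The place of the FXYD genes depends on the length each FPKM value was divided by. That length was 4.107 kb for Fxyd6, 2.186 kb for Fxyd1 and 0.693 kb for Fxyd7, while the longest principal transcripts in GENCODE M21 measure 1.788, 0.62 and 0.693 kb. For the beta genes the same lengths were 3.081 and 2.58 kb for Atp1b1, 4.085 and 2.842 kb for Atp1b2, and 2.389 and 1.994 kb for Atp1b3.

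The make-up of the beta members within a library was compared next, since a share does not depend on how libraries are scaled. Their summed FPKM was 116 and 115 in controls and 353 and 374 in Ezh2 cKO. Atp1b1 made up 38.3% and 29.4% of it in controls and 52.5% and 57.4% in Ezh2 cKO. Atp1b3 made up 28.9% and 29.1% in controls and 10.7% and 10.3% in Ezh2 cKO. The libraries of the genotypes were thus apart for Atp1b1, by 21.1 percentage points in the means, and for Atp1b3, by -18.5 percentage points. Atp1b2 made up 32.8% and 41.5% in controls and 36.9% and 32.3% in Ezh2 cKO, which overlapped, and the sign of its small difference turned when 1 control library, replicate 2, was left out (from -2.58 to 1.77 percentage points). The exact two-sided permutation p was 0.333 for Atp1b1 and Atp1b3, the smallest that 2 libraries against 2 allow, and 0.667 for Atp1b2. The log2 ratio of Atp1b2 over Atp1b1 was -0.22 and 0.50 in controls and -0.51 and -0.83 in Ezh2 cKO, a difference in the means of -0.81 (exact permutation p = 0.333). Without control replicate 2 this difference was -0.45.

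The make-up of the FXYD members shifted from Fxyd6 towards Fxyd7. Their summed FPKM was 246 and 290.1 in controls and 451 and 435 in Ezh2 cKO. Fxyd6 made up 72.8% and 70.3% of it in controls and 32.6% and 33.4% in Ezh2 cKO. Fxyd7 made up 25.9% and 28.8% in controls and 66.0% and 65.2% in Ezh2 cKO. In each library these 2 genes held nearly the whole of the sum, and Fxyd1 held between 0.882% and 1.41%. The log2 ratio of Fxyd7 over Fxyd6 was -1.49 and -1.29 in controls and 1.02 and 0.96 in Ezh2 cKO, a rise of 2.38 in the mean (exact permutation p = 0.333, the smallest possible). The log2 ratio of Fxyd1 over Fxyd6 was -5.86 and -6.32 in controls and -4.53 and -4.56 in Ezh2 cKO, a rise of 1.54 (exact permutation p = 0.333). With counts divided by the length of the principal transcript instead, Fxyd6 made up 84.1% ± 0.802 in controls and 51.8% ± 0.677 in Ezh2 cKO, and Fxyd7 made up 14.0% ± 1.25 and 44.8% ± 0.665 (SD, n = 2). Shares of CPM, with no length at all, were 93.2% for Fxyd6 and 6.02% for Fxyd7 in controls and 73.6% and 24.7% in Ezh2 cKO, a shift of 18.7 percentage points for Fxyd7 against 38.2 by FPKM. The shift from Fxyd6 towards Fxyd7 was present in all 3 of these settings, but its size was not the same, and Fxyd7 led in Ezh2 cKO only by FPKM.

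**Figure D2:**
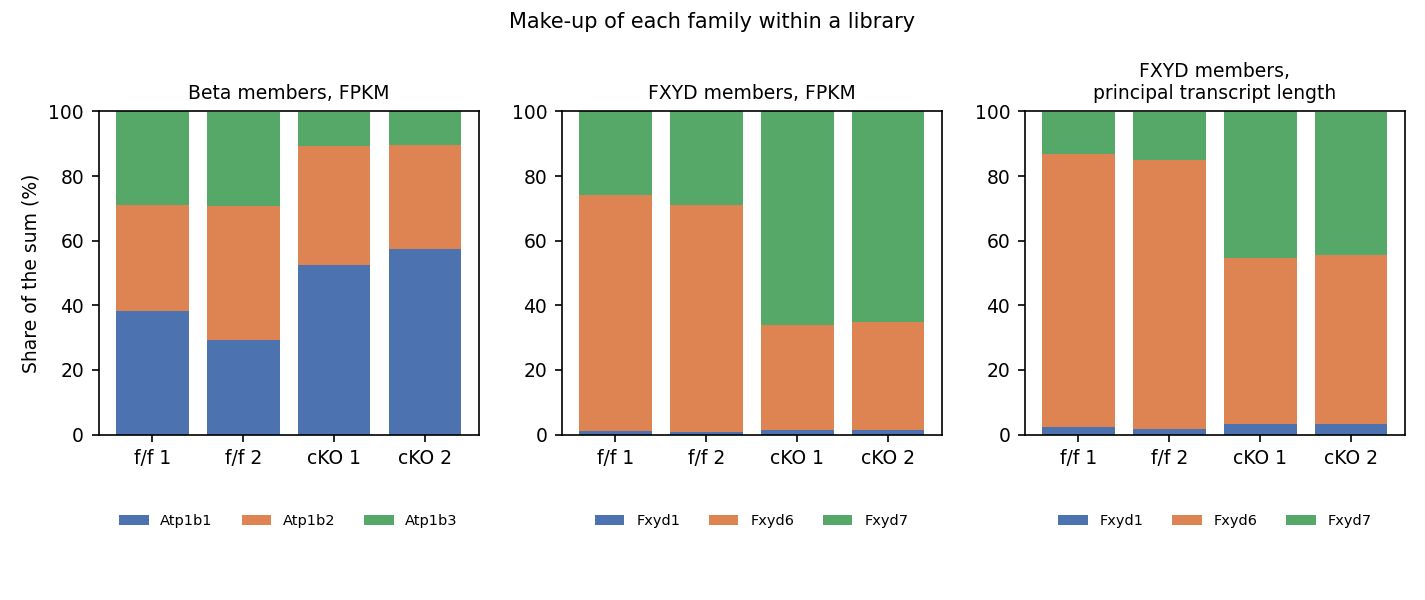
Percent of the summed level held by each beta member (left, FPKM), each FXYD member (middle, FPKM) and each FXYD member with counts divided by the principal transcript length (right), in each of the 4 libraries. Atp1b3 shrinks from 29.0% to 10.5% of the beta sum, and Fxyd7 grows from 27.4% to 65.6% of the FXYD sum by FPKM and from 14.0% to 44.8% by transcript length.

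Of 9 other listed genes of the pump family, 3 passed the filter on low counts. The FXYD genes Fxyd2 and Fxyd5 were higher, 0 were lower and Atp4a, a proton pump gene, was not called (log2 fold change 0.20, adjusted p = 0.516 from edgeR). Fxyd2, the gamma subunit of the kidney pump, had 46 and 43 counts in controls and 225 and 155 in Ezh2 cKO (log2 fold change 2.00, SE 0.23, adjusted p = 3.40e-06 from edgeR). Fxyd5, known as dysadherin, had 218 and 205 counts in controls and 610 and 563 in Ezh2 cKO (log2 fold change 1.38, SE 0.13, adjusted p = 3.44e-07 from edgeR). The Ezh2 cKO libraries were above the control libraries for both, which leaves Fxyd6 as the only called FXYD gene of the 5 tested that was lower. Over all tested genes 34.7% were called higher and 33.6% lower, so 1 lower gene among 5 does not set the family apart. Atp1a4, Atp1b4, Fxyd3, Fxyd4, Atp4b and Atp12a had at most 14 counts in any library and were not tested.

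**Figure D3:**
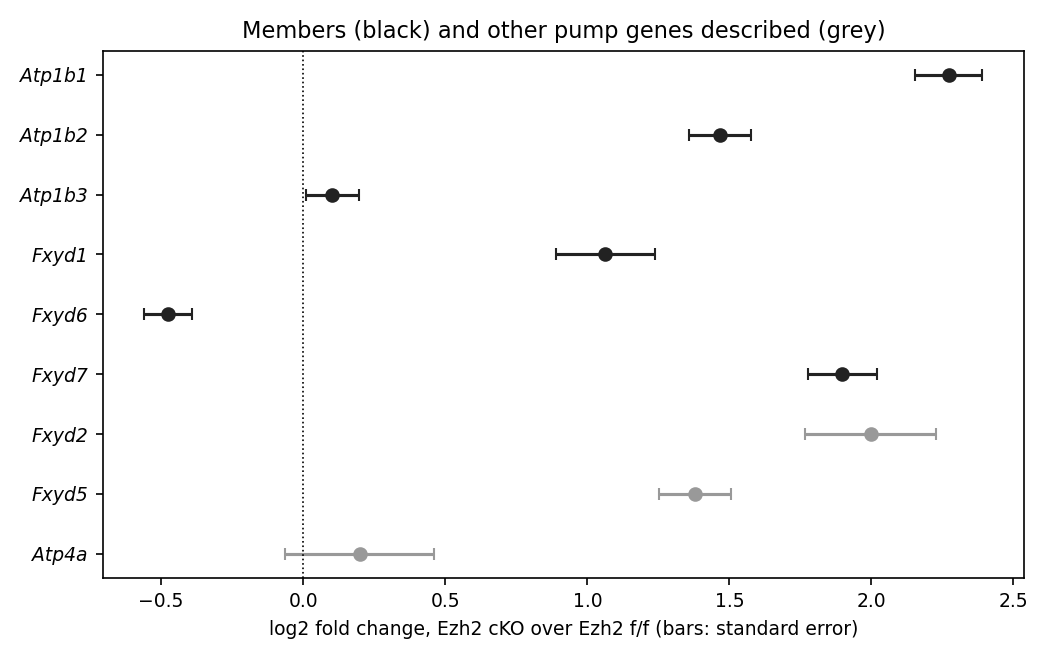
Log2 fold change, Ezh2 cKO over Ezh2 f/f, of the 6 members (black) and the 3 other pump genes described (grey), with bars of 1 standard error from the edgeR fit on 2 libraries per group. The members span -0.47 for Fxyd6 to 2.27 for Atp1b1, and only Fxyd6 lies to the left of 0.

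Pump partners, users of its sodium gradient and other ion and water transport genes were described as a list of 19, all of them tested. Aqp4, Slc1a2 and Slc1a3 of this list are also among the astrocyte markers. Of these, 15 were higher and 1 lower in Ezh2 cKO, against 34.7% and 33.6% of all tested genes. Their median log2 fold change was 1.32, beside 1.27 for the members and 0.02 for all tested genes. The lower one was Nkain1, whose product binds the beta1 subunit, with a log2 fold change of -1.86. The Nkain1 relatives Nkain2 (0.87) and Nkain4 (1.22) were higher, and Nkain3 was not called. The astrocyte channels and transporters Aqp4 (4.42), Kcnj16 (4.15), Slc1a2 (3.94), Slc4a4 (2.21), Kcnj10 (1.69) and Slc1a3 (1.59) were higher, all called in edgeR. Among the calcium pumps and sodium-calcium exchangers, Slc8a2 (2.34), Atp2b2 (2.06), Atp2b4 (1.93), Atp2b1 (1.32), Atp2a2 (0.92), Atp2b3 (0.72) and Slc8a1 (0.37) were higher, while Slc8a3 and the chloride cotransporter Slc12a2 were not called.

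In bulk libraries fewer cells of a type and less RNA per cell cannot be told apart, and markers of several cell types moved with the members. Beside the neuronal and astrocyte markers given above, the 8 oligodendrocyte markers summed to 87.1 to 99.3 CPM in controls and 747 to 872 CPM in Ezh2 cKO (7 higher, 0 lower). The 6 markers of oligodendrocyte precursors summed to 182.5 to 184.5 CPM and 533 to 603 CPM (6 higher, 0 lower). The 8 microglial markers summed to 80.3 to 85.0 CPM and 239 to 275 CPM (8 higher, 0 lower). These glial lists, like the neuronal and astrocyte lists, had their higher sums in the same libraries as Atp1b1, Atp1b2, Fxyd1 and Fxyd7. The 8 endothelial and mural markers differed less, with 317 to 325 CPM and 377 to 422 CPM (2 higher, 1 lower). Markers of progenitor and cycling cells fell from 204 to 226 CPM to 82.3 to 82.4 CPM (0 higher, 8 lower), in the direction of Fxyd6. Of 7 tested markers of choroid plexus and ependymal cells, 5 were lower and 1 higher. The list summed to 413 to 798 CPM in controls and 17.7 to 19.5 CPM in Ezh2 cKO. Ttr, named after its values were seen, made up most of that sum in controls. It had 370 and 738 CPM in controls and 0.284 and 0.693 CPM in Ezh2 cKO. No marker in these lists was at 0 in all 4 libraries, and the part of cell make-up in the members' changes was not tested.

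By position, the FXYD genes lie close to one another. On chromosome 7, Fxyd5, Fxyd7 and Fxyd1 follow each other on the minus strand, with 31 bases between Fxyd5 and Fxyd7 and 210 between Fxyd7 and Fxyd1, as listed. All 3 were called higher in Ezh2 cKO, beside 34.7% of all tested genes. So was Lgi4, which lies 2142 bases beyond Fxyd1 on the opposite strand (log2 fold change 1.84, adjusted p = 5.16e-04 from edgeR). On chromosome 9, Fxyd6 and Fxyd2 lie 3509 bases apart on the same strand, and they moved in opposite directions, with log2 fold changes of -0.47 and 2.00. Atp1b1 overlaps Nme7, which is on the opposite strand, over 617 bases, and without a stated use of strand their reads there cannot be told apart. Nme7 had 174 and 158 counts in controls and 222 and 252 in Ezh2 cKO.

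Promoter sequence was read from RefSeq windows on GRCm38.p6, of which 4 of the 6 members had at least 1. The window of Atp1b1, the member with the largest fold change, and that of Fxyd6, the member that fell, are shown so that the called extremes in either direction can be set side by side. Each holds the 250 bases before the start, 5′ to 3′ on the gene's strand, with capitals where the letters GGGCGG of a GC box, CCAAT of a CCAAT box or, for a TATA box, TATAAA occur on either strand. The window of Atp1b1 is chr1:164458356-164458605 on the minus strand and that of Fxyd6 is chr9:45369935-45370184 on the plus strand.
Atp1b1: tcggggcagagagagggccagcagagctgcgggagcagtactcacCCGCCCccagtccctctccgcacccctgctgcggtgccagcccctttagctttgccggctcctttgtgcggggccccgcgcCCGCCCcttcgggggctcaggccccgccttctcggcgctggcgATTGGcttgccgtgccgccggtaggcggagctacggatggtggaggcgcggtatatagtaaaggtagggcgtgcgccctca
Fxyd6: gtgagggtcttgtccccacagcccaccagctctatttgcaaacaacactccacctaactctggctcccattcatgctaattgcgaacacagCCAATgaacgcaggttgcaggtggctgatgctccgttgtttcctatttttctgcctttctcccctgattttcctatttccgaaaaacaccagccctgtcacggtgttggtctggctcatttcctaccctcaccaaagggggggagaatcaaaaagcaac
The Atp1b1 window held 24 CG dinucleotides, more than 88.0% of the 32851 windows of this length, with GGGCGG at 2 places and CCAAT at 1. The Fxyd6 window held 5 CG dinucleotides, more than 44.4% of the windows, with CCAAT at 1 place. The 2 windows of Atp1b3, which was not called, held 35 and 24 CG dinucleotides, and that of Fxyd1 held 3. Among the 4 members with a window, CG content was higher in both beta genes than in both FXYD genes, and it did not follow the direction of change. Over all windows GGGCGG was found in 32.7%, CCAAT in 33.8% and TATAAA in 12.4%, and the median window held 6 CG dinucleotides. The motifs do not overlap one another in the windows shown, and a match is a run of letters, not a bound site.

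The genes whose profiles over the 4 libraries were nearest to each member were found by the distance between log2(CPM + 0.5) values, each centred on its own mean. For Atp1b1 these were Adk (0.04) and Grm3 (0.04), for Atp1b2 Faah (0.01) and Angptl4 (0.02), and for Atp1b3 Klf16 (0.02) and Vapb (0.02). For Fxyd1 they were Gm33280 (0.05) and Gbp7 (0.05), for Fxyd6 Gm50455 (0.02) and Rbm28 (0.02), and for Fxyd7 Zfp607b (0.02) and Atp6v1g2 (0.04). Gm33280 and Gm50455 lay under 1 CPM in every library, where the added 0.5 CPM shrinks differences. Their fitted log2 fold changes were 2.48 and -0.81, unlike those of Fxyd1 and Fxyd6. Gbp7 was also low, at 0.64 and 0.45 CPM in controls and 1.59 and 1.56 CPM in Ezh2 cKO. Its fitted log2 fold change was 1.51, beside 1.06 for Fxyd1. No member was among the 2 nearest genes of another.

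**Figure D4:**
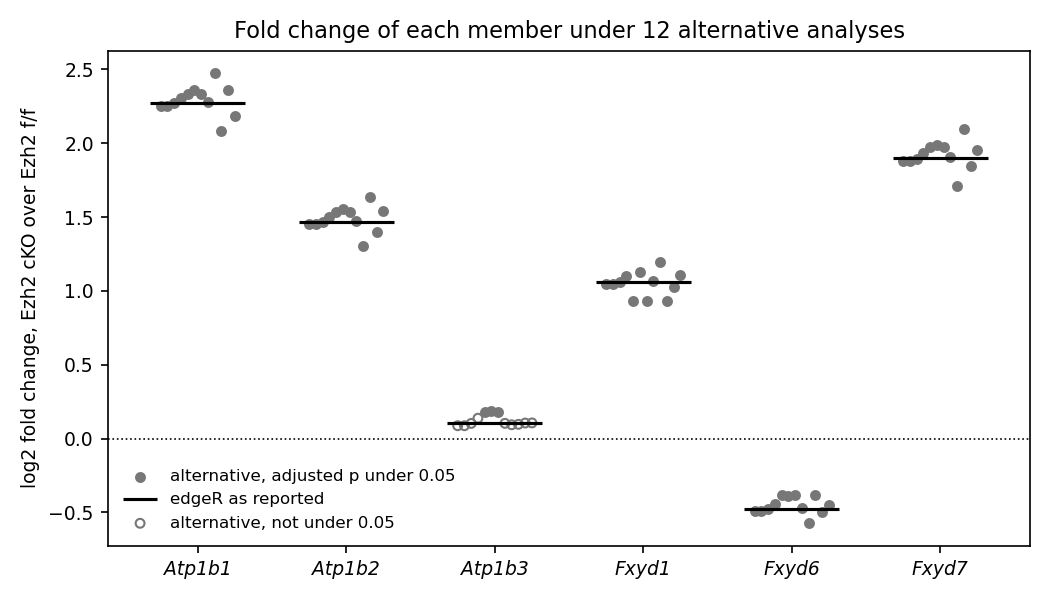
Log2 fold change, Ezh2 cKO over Ezh2 f/f, of each member in edgeR (black line) and in 12 alternative analyses (points, filled where the adjusted p is under 0.05). The points of Atp1b1 lie between 2.08 and 2.47 and those of Fxyd6 between -0.57 and -0.39, and only Atp1b3 has both filled and open points.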

How the data were processed

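RNA was sequenced from P5 cortical astrocytes in 2 control (Ezh2 f/f) and 2 Ezh2 cKO libraries. As deposited by the authors, the tables hold read counts per gene without normalization, and FPKM, which equal the counts divided by a fixed gene length and the library total. The submitters' processing notes name Bowtie2 2.2.3, TopHat2 2.0.12, HTSeq 0.6.0 and mm9; the use of strand is not given in the sources used here. Columns of the authors' own comparison (ratio, log2 ratio and p-values) were not used; 0 columns of sample values were left out.

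Counts were compared with edgeR 4.0.16 in R 4.3.3 (filterByExpr, TMM, quasi-likelihood test with group as the only term, Benjamini-Hochberg adjustment over 16793 genes, called under 0.05). Shares and ratios of FPKM were compared by exact two-sided permutation. Promoters came from RefSeq and coding bases from GENCODE M21. Alternatives were DESeq2 1.42.0, its size factors, other filters (none, or a mean of at least 50 counts), limma 3.58.1 on log2(FPKM + 1) or log2(FPKM + 0.1), a replicate block, each library left out, and, for shares and ratios, CPM without gene length or a pseudocount of 1 FPKM; principal transcript lengths for shares were chosen after seeing the data. The tests were tried on simulated data, in which edgeR recovered 190 of 200 changed genes over 16371 genes, with 6 false calls. In that simulation few genes changed, each by more than Fxyd6 or Atp1b3 did, and all genes had the same spread. It therefore did not try the tests where 68.4% of genes are called, as here. Replicate libraries were not duplicates, since their counts gave a chi-square per degree of freedom of 6.47 (controls) and 4.28 (Ezh2 cKO).

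The members and lists were chosen with earlier results of these data known. The genes named are the members, the listed pump genes and partners, nearest neighbours, the 2 nearest profiles per member, Ezh2 and marker genes. Of the marker genes, Aldh1l1, Tubb3 and Ttr were singled out after their values were seen. Some listed pump genes and partners are not reported here. Nearest neighbours farther off than Fxyd2 is from Fxyd6 are not described. Among them some were called higher, some lower and some neither.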

Additional observations from a re-analysis of the deposited data

How the results depend on the processing

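The direction of each member's fold change was the same in the 12 alternatives, and the calls of Atp1b1 (log2 fold change 2.08 to 2.47), Atp1b2 (1.30 to 1.63), Fxyd1 (0.93 to 1.20), Fxyd6 (-0.57 to -0.39) and Fxyd7 (1.71 to 2.10) held in each, with the highest adjusted p at 0.0339, for Fxyd6. In the 4 alternatives that leave out a library, 1 genotype has a lone library, which is assumed to vary like the other group. Atp1b3 was not called in 9 alternatives (0.09 to 0.14) and was called higher by limma, with 0.18 on log2(FPKM + 1) (adjusted p = 0.0399), 0.19 on log2(FPKM + 0.1) (adjusted p = 0.0410) and 0.18 without a filter (adjusted p = 0.0461); the cause was not tested. The difference in the Atp1b2 share was -6.93 to 1.77 percentage points when single libraries were left out, the highest being without control replicate 2. Genes called numbered 4677 to 5795 higher and 4518 to 5747 lower over the alternatives.

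Same-numbered libraries are not said to share a litter or batch. Their deviations from the group means had a correlation of 0.119 over 16793 genes, which with so few libraries cannot decide whether they do. With a replicate block the log2 fold changes were 2.28 for Atp1b1, 1.47 for Atp1b2, 0.10 for Atp1b3, 1.07 for Fxyd1, -0.47 for Fxyd6 and 1.91 for Fxyd7, with 5795 genes higher and 5599 lower, and no member's call changed.

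Depth limited Fxyd1 most, which had 91 counts in its lowest library. With 2 libraries per group the shares and ratios could not pass a threshold by permutation, and p-values rest on a spread shared across genes.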
